A study of Mus musculus with 2 samples.

Results

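Of the prostaglandin pathway, 8 genes were followed in Müller glia, the radial support cells that span the retina, purified from light damaged and from undamaged adult mouse retinas. They are Pla2g4a, Ptgs1, Ptgs2, Ptgds, Ptges, Ptges2, Ptges3 and Ptger4, and they were taken as every probe set that the platform annotation pairs with 1 of these genes alone, 83 probe sets in all, out of 20412 genes with a value on the arrays. For the light damage array, RNA came from a pool of 10 retinas, of mice that received 8 hours of white light at 10000 lux and were analysed a week later, and for the undamaged control array from a pool of 12 retinas. Light damage mice came from a cross of Rlbp1-creERT2: tdTomato reporter mice, in which a tamoxifen-inducible Cre under the Rlbp1 promoter labels Müller glia, with albino Swiss Webster mice that carry an Rpe65 variant, and a Hes5-GFP line crossed to the same strain was used too. Mice were adult, and tamoxifen was injected at 2 to 3 months of age to switch on Cre. Nothing read here gives the parentage or sex of the animals in each pool, so a difference of strain or sex between the pools and light damage cannot be told apart. With 1 array of pooled retinas per condition there is no replicate check, no p-value is given, and each SD below is the technical spread over the probe sets of a gene on the same arrays.

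Prostaglandins are short-lived lipid mediators. Cytosolic phospholipase A2, encoded by Pla2g4a, frees arachidonic acid from membrane phospholipids. The cyclooxygenases Ptgs1, mostly constitutive, and Ptgs2, induced by growth factors, cytokines and injury, turn it into prostaglandin H2, and terminal synthases make prostaglandin D2 (Ptgds) or E2 (Ptges, Ptges2 and Ptges3) from it. Receptors on the cell surface, among them the EP4 receptor Ptger4, bind the products. In nervous tissue the pathway is known for its part in inflammation and pain, and Ptgds is also secreted as a carrier of small lipophilic molecules.

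Müller glia genes, those of the labelled cell type, gave high signals on both arrays. The 18 marker genes had a median log2 level of 11.24 on the light damage array and of 11.47 on the undamaged control array. Rod genes gave high signals as well, with median levels of 10.88 after light damage and 11.99 in the control over 11 genes. High signals of Müller glia genes therefore do not show that the fraction was free of rod RNA. Over all probe sets the median level was 6.99 after light damage and 7.02 in the control. Of 16534 genes at a mean level of at least 5, 289 stood higher after light damage by at least 1 on the log2 scale, or 1.75%, and 574 stood lower by at least 1, or 3.47%. The higher ones made up 33.5% of both in the values as deposited, against 45.7% after quantile normalization and 44.7% after removal of a loess trend with level.

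Ptgds and Ptgs2 were the 2 of the 8 genes that stood higher by 1 or more, none stood lower by 1 or more and 6 lay within 1. For all genes tested, the shares past 1 were the 1.75% and 3.47% given above. The median difference of the 8 genes was 0.12, against −0.03 for all genes tested, with 5 genes above 0 (47% of all genes tested were above 0) and 3 below. Ptgds stood higher by 1.39 ± 0.52 (2.62-fold, SD over 9 probe sets) and Ptgs2 by 1.25 ± 1.08 (2.39-fold, SD over 13 probe sets). Ptges followed at 0.39 ± 0.25, whereas Ptges3 stood at −0.68 ± 0.72 and Ptges2 at −0.39 ± 0.48. Ptgs1, Ptger4 and Pla2g4a had medians near 0, of 0.16 ± 0.56, 0.07 ± 0.68 and −0.14 ± 1.31. All 8 genes had a mean level of at least 5, although Ptger4 was close to that limit, at 5.12. Ptgs2 reached it only through the light damage array, with a level of 6.27 there and 4.86 in the control, so its place in the count rests in part on its own difference. With a level of at least 5 asked of both arrays, Ptgds alone of the 8 genes was counted higher by 1 or more. Among all genes, 272 then stood higher and 549 lower, and their shares were not computed.

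**Figure D1:**
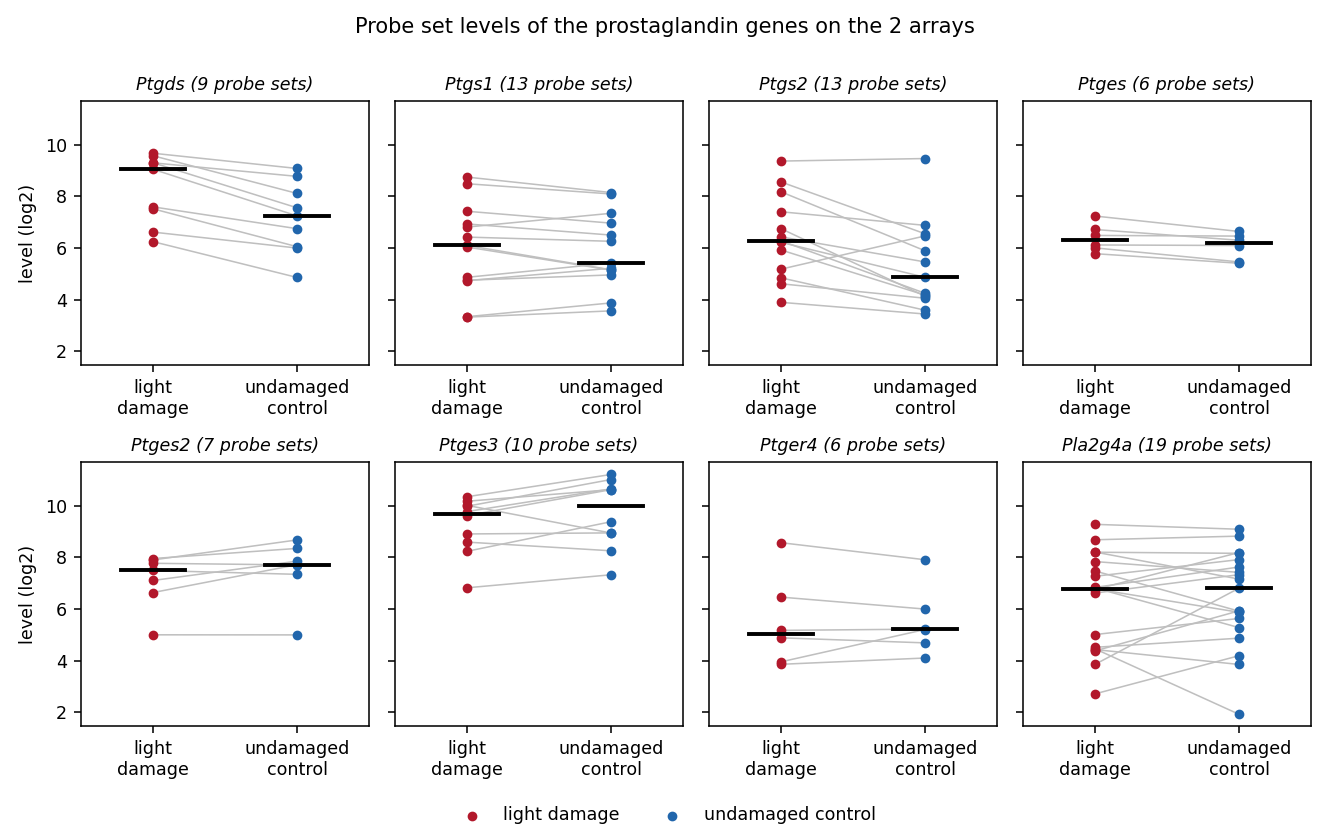
Levels of every probe set (log2, vertical axis) of the 8 genes on the light damage array (red, left) and the undamaged control array (blue, right), with grey lines joining a probe set and black bars at the median. All 9 Ptgds lines run higher on the light damage side, while those of Pla2g4a cross.

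The promoter windows of the 2 genes past 1 are shown because these are the members on which the comparison of the pathway turns. They are 300-base windows from RefSeq (build GRCm38.p6), written 5′ to 3′ on the strand of the gene, from 250 bases before to 50 bases after the annotated start, and all 8 genes matched a window by symbol. Ptgds lies on the minus strand at chr2:25469700-25469999 and Ptgs2 on the plus strand at chr1:150099781-150100080. Capitals mark matches, on either strand, to any of 6 motifs that were searched: TGACGT (ATF and CREB core), TGANTCA (AP-1), CACGTG (E-box), TTGCGCAA (C/EBP palindrome), GGGCGG (GC box) and TATAAA (bound by the general transcription machinery).
Ptgds: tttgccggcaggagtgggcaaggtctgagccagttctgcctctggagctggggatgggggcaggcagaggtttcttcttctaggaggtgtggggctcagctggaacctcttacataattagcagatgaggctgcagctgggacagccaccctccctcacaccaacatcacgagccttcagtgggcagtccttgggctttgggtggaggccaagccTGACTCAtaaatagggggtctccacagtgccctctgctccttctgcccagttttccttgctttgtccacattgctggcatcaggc
Ptgs2: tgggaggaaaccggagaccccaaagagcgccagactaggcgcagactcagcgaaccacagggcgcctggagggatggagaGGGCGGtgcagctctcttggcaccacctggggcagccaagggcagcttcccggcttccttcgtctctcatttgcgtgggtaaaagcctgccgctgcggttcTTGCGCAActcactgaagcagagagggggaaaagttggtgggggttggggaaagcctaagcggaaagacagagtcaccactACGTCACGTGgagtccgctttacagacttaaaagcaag

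The Ptgds window held 1 match, the AP-1 letters TGACTCA, which end 29 bases before the annotated start. AP-1 letters were found in 7.81% of all 32851 promoter windows and in no other window of the 8 genes. The Ptgs2 window held 4 matches. The C/EBP palindrome begins 69 bases before the start, and it was present in 0.183% of all windows. The ATF/CREB core, read on the minus strand, and the E-box share 2 bases and begin 12 and 16 bases after the start, and these motifs were found in 7.51% and 7.15% of all windows. A GC box, found in 35.7% of windows, begins 170 bases before the start. Among the 8 genes, the E-box was also found for Ptges2, and the GC box also for Ptges, Ptges3 and Ptger4. A match is a run of letters and not a bound site, and the arrays measured no binding.

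Ptgds, the lipocalin-type synthase of prostaglandin D2, stood higher in all 9 of its probe sets. Their levels lay between 6.24 and 9.67 on the light damage array and between 4.86 and 9.08 on the control array, ranges that overlap because probe sets differ in brightness. Within probe sets the differences fell into a lower set of 4, from 0.52 to 0.85, and a higher set of 5, from 1.39 to 1.81. The largest difference came from a probe set at 9.05 after light damage and 7.24 in the control. The brightest probe set read 9.67 after light damage and 9.08 in the control, a difference of 0.59, and was therefore in the lower set. The next in mean level was in it too, at 0.52. Of all genes at a mean level of at least 5, 99.4% had a smaller difference than Ptgds, and 25.6% of the 8829 genes with 6 to 19 probe sets had a smaller SD. Leaving out each probe set in turn gave medians between 1.12 and 1.42. The 8 probe sets with a control level of 5 or more had a median of 1.15. An offset of 32 added before the log2 brought the difference to 0.82, below 1.

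Ptgs2, the inducible cyclooxygenase, stood higher in 11 of 13 probe sets, 7 of them by 1 or more. Its probe sets spanned 3.89 to 9.36 on the light damage array and 3.44 to 9.46 on the control array. In the 7 probe sets with a control level under 5 the difference was positive throughout, from 0.45 to 2.61, with a median of 1.36. In the 6 with a control level of 5 or more the median was 0.75 and the signs were mixed, 4 above 0 and 2 below. The control level is itself a term of the difference, so a low control reading favours a positive difference and nothing is read from this contrast.

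The bright probe sets of Ptgs2 disagreed. The brightest read 9.36 after light damage and 9.46 in the control, a difference of −0.10. The next in mean level read 8.56 after light damage and 6.55 in the control, a difference of 2.01. The third read 7.40 after light damage and 6.87 in the control, or 0.53. Another read 8.18 after light damage and 5.89 in the control, a difference of 2.29, so a positive difference was not limited to dim probe sets. A single probe set stood lower by 1 or more, at 5.18 after light damage and 6.47 in the control (−1.29). The 13 probe sets carry consecutive numbers on the array, and the 2 with a negative difference carry the first (10350517) and the last (10350529) of them. Which part of the gene each probe set reads was not analysed here.

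The sign of Ptgs2 thus follows the probe set chosen, −0.10 in the brightest against 1.25 in the median of 13. The offset of 32 before the log2 gave 0.64, while restriction to the 10 probe sets at a mean level of at least 5 gave 1.55. Of these 10, 4 had a control level under 5 and passed only through the light damage array, and the 6 at 5 or more on both arrays had a median of 0.75. The median of 1.25 is the reading of a probe set at 4.84 after light damage and 3.59 in the control. Leaving out each probe set in turn gave medians between 1.11 and 1.30. Its SD of 1.08 exceeded that of 94.2% of genes with 6 to 19 probe sets.

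**Figure D2:**
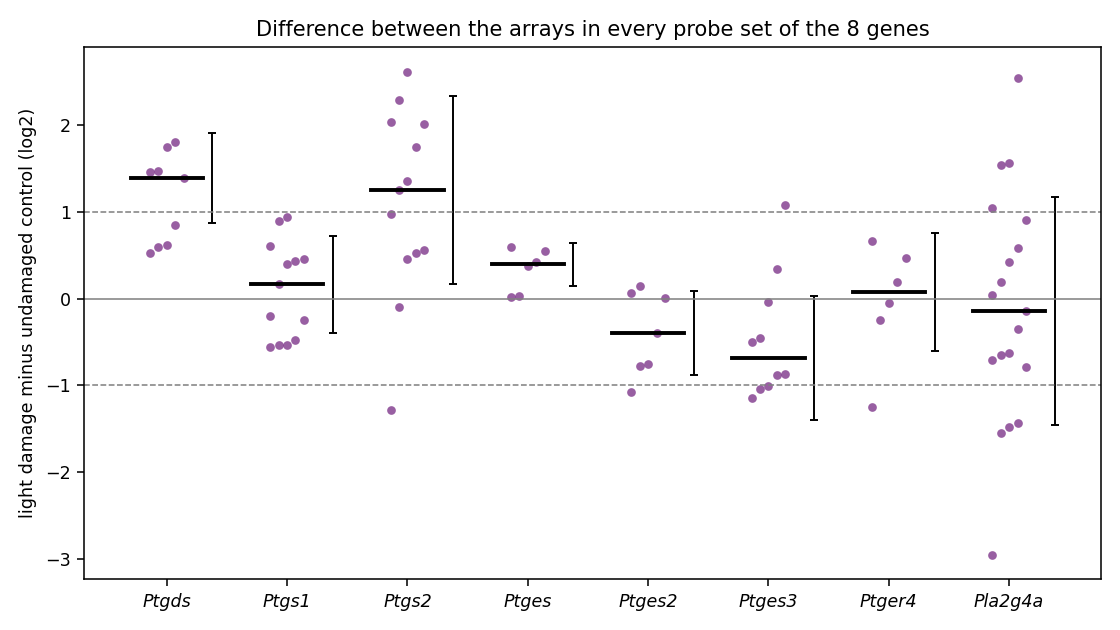
Difference of each probe set (light damage minus undamaged control, log2, vertical axis) for the 8 genes, with black bars at the median of a gene, error bars of 1 SD over its probe sets and dashed lines at 1 and −1. The median bars of Ptgds and Ptgs2 lie above 1, and the points of Pla2g4a spread from −2.96 to 2.54.

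Ptgs1, the other cyclooxygenase, had 7 probe sets above 0 and 6 below, and none differed by 1 or more. Its levels ran from 3.32 to 8.74 after light damage and from 3.56 to 8.14 in the control. The brightest probe set read 8.74 after light damage and 8.14 in the control, a difference of 0.60. The 5 probe sets of highest mean level had a median of 0.43, and the 3 with a control level under 5 were all below 0. Restricted to probe sets at a mean level of at least 5, the difference of Ptgs1 was 0.43, still within 1. The difference between the cyclooxygenases, 1.25 in Ptgs2 and 0.16 in Ptgs1, was not tested.

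Pla2g4a, upstream of both, had the widest spread of the 8 genes. Its 19 probe sets had 9 differences above 0 and 10 below, 4 of them at 1 or more and 4 at −1 or less. The extremes were 4.46 after light damage and 1.93 in the control (2.54), and 3.86 after light damage and 6.81 in the control (−2.96). The 3 brightest by mean level lay close to 0, at 0.19, −0.14 and 0.04. The SD of 1.31 exceeded that of 98.8% of genes with 6 to 19 probe sets. No direction can therefore be read for Pla2g4a from these arrays. By RefSeq its gene lies close to Ptgs2 on chromosome 1. The array numbers Ptgs2 between Brinp3, at −0.03, and the rod gene Pdc, at −1.91, the lowest of the 11 rod markers.

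**Figure D3:**
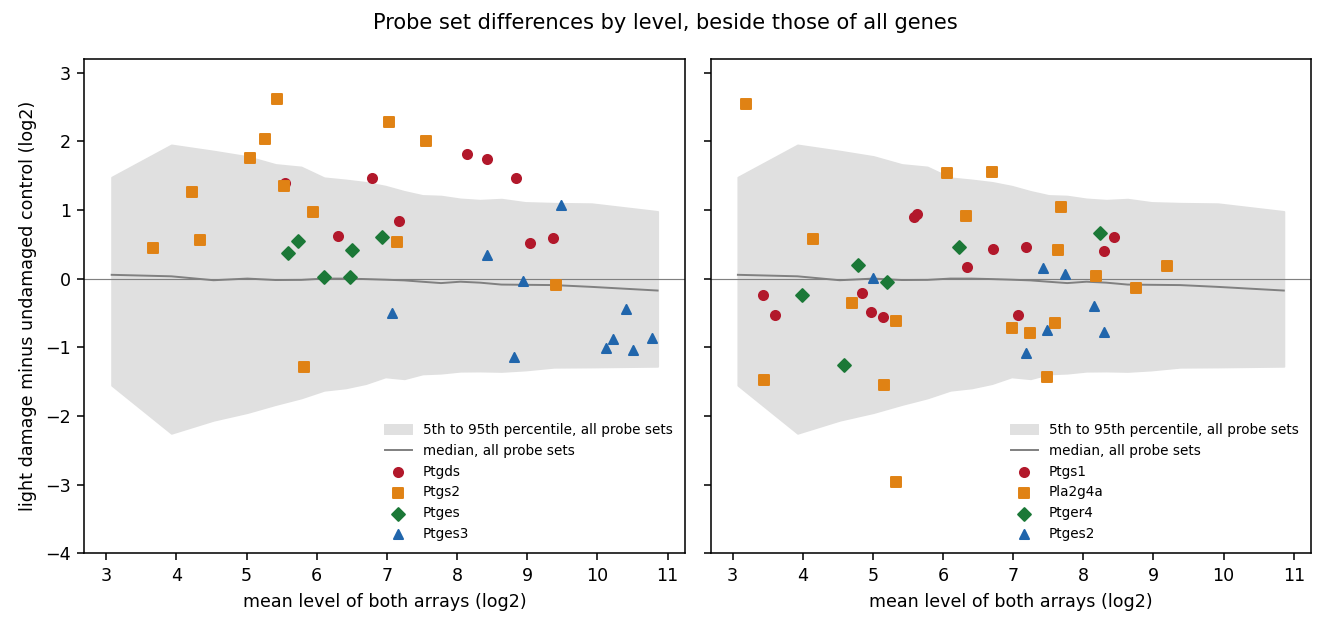
Difference (light damage minus undamaged control, log2, vertical axis) against the mean level of both arrays (log2, horizontal axis) for each probe set of the 8 genes, in 2 panels of 4 genes. The grey band holds the 5th to 95th percentile of all probe sets paired with 1 gene, in 20 bins of mean level, and 4 points of Ptgds and 4 of Ptgs2 lie above it.

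Set against probe sets of like brightness, 11 of the 83 lay above the 95th percentile and 2 below the 5th percentile. The 11 were 4 of Ptgds, 4 of Ptgs2 and 3 of Pla2g4a, and both low ones belonged to Pla2g4a, so the other 5 genes had no probe set outside this band. The band itself ran from −1.29 to 1.09 at a median level of 9.92 and was wider at 3.93, from −2.25 to 1.95. Of the 69 probe sets at a mean level of at least 5, 15 (21.7%) stood higher by 1 or more, against 9.11% of all 175270 such probe sets, and 11 of the 15 were those of Ptgds and Ptgs2. Of these 11, 4 of the 6 of Ptgs2 and 1 of the 5 of Ptgds had a control level under 5 and passed only through the light damage array. With a level of at least 5 on both arrays, 10 of 61 (16.4%) stood higher by 1 or more, against 7.85% of all 164666 such probe sets, 4 of them of Ptgds and 2 of Ptgs2. Lower by 1 or more were 8 (11.6%), against 12.5% of all, and 44 (63.8%) were above 0, against 47.1% of all. Probe sets of a gene share its RNA and are not separate evidence of its direction.

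The 3 synthases of prostaglandin E2 differed in sign. Ptges, the inducible microsomal enzyme that acts with Ptgs2, had 6 of 6 probe sets above 0, but none by 1 or more. Its levels were 5.78 to 7.24 after light damage and 5.41 to 6.64 in the control, and the differences ran from 0.02 to 0.60. The probe sets of Ptges were close together, with a smaller SD in only 1.26% of genes with 6 to 19 probe sets, while 84.0% of all genes tested had a smaller difference. Ptges2, a membrane-associated enzyme, had 3 probe sets above 0 and 4 below. The lowest of them read 6.64 after light damage and 7.72 in the control (−1.08), and the remaining 6 lay between −0.77 and 0.15.

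Ptges3 encodes p23, which is named for a cytosolic prostaglandin E synthase activity and is better known as a co-chaperone of Hsp90. It stood at −0.68, with 8 of 10 probe sets below 0, 3 of them at −1 or less and 1 at 1 or more. Its levels were 6.83 to 10.35 after light damage and 7.33 to 11.22 in the control. The 10 probe sets do not carry consecutive numbers on the array. Probe set numbers follow the genome closely: where the genes numbered on either side lay on 1 chromosome, it was the gene's own chromosome by RefSeq in 97.7% of 20311 runs. By this measure 5 probe sets of Ptges3 stand among genes of its own chromosome 10, between Naca and Atp5b, and 5 stand elsewhere.

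Those numbered beside chromosome 10 genes read 1.07, 0.34, −0.45, −1.15 and −0.50, with a median of −0.45 ± 0.86 and mixed signs. Of the other 5, 3 are numbered between Alms1 and Tprkb on chromosome 6, where RefSeq lists the pseudogene Ptges3-ps, and 2 between Ufl1 and Fut9 on chromosome 4. Those beside chromosome 6 genes read −0.04, −0.88 and −1.01, and those beside chromosome 4 genes read −0.86 and −1.04. The median of these 5 was −0.88 ± 0.41, and all 5 were below 0. The difference of Ptges3 was thus less negative in the probe sets beside its own neighbours than in the whole set. This split was made after the values were seen, and whether the other 5 probe sets read copies of the gene was not tested.

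**Figure D4:**
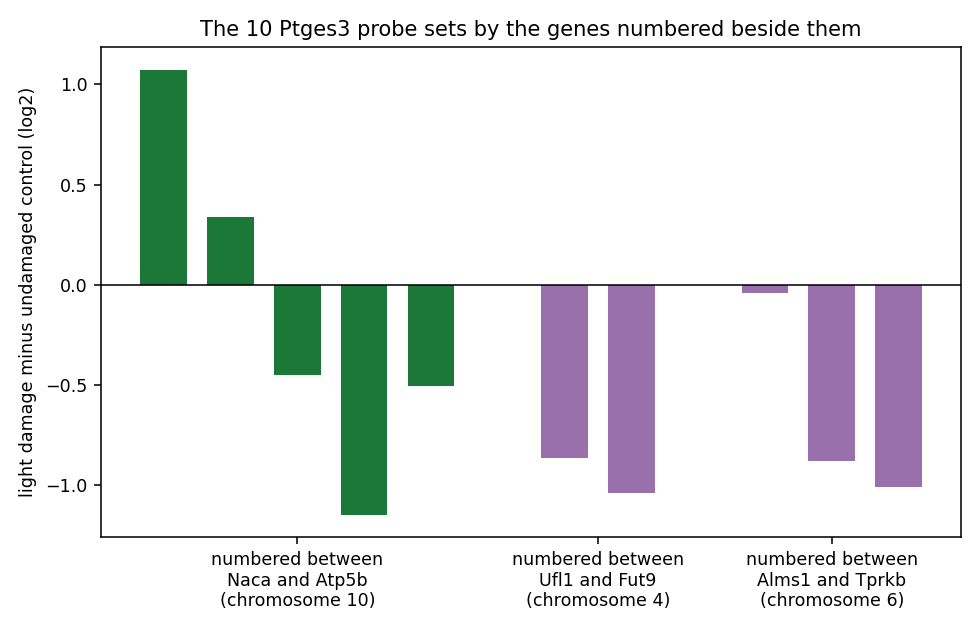
Difference (light damage minus undamaged control, log2, vertical axis) of the 10 Ptges3 probe sets, grouped by the genes numbered beside them on the array. The 5 numbered beside genes of chromosome 10 (green), where Ptges3 lies, have mixed signs. The 5 numbered beside genes of chromosomes 4 and 6 (purple) are all below 0.

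Genes of the chaperone complex in which p23 acts were read for comparison. Of 7 Hsp90 genes and co-chaperones none differed by 1 or more, 5 were below 0 (52.7% of all genes tested were below 0) and their median was −0.42. Hsp90aa1, the stress-inducible Hsp90, had the largest difference of them, −0.88 ± 0.46 over 21 probe sets, with levels of 11.65 after light damage and 12.37 in the control.

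Ptger4, the EP4 receptor, which couples to cyclic AMP synthesis, was dim and had no common direction. Its 6 probe sets read 3.86 to 8.57 after light damage and 4.11 to 7.91 in the control, 3 above 0 and 3 below, with extremes of −1.25 and 0.66. The brightest gave 0.66, at 8.57 after light damage and 7.91 in the control. The 3 probe sets at a mean level of at least 5 had a median of 0.46.

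The other 8 prostanoid receptors also lay within 1. Of 9 receptors with Ptger4, 7 were at a mean level of at least 5, none of them stood higher or lower by 1, and their median was 0.07. Ptger1, the EP1 receptor, came closest, at 0.82 ± 0.44 with 5 of 6 probe sets above 0 and levels of 7.20 after light damage and 6.65 in the control. The thromboxane receptor Tbxa2r stood at 0.45 ± 0.82, the EP3 receptor Ptger3 at 0.25 ± 0.76, the prostaglandin F receptor Ptgfr at 0.11 ± 0.70 and the prostacyclin receptor Ptgir at 0.02 ± 0.24. The EP2 receptor Ptger2 (−0.01 ± 0.57) and Ptgdr2 (−0.25 ± 0.40) and Ptgdr (−0.34 ± 0.59), the receptors of prostaglandin D2, were not above 0. Ptger2 and Ptgfr had mean levels under 5.

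Among terminal synthases Ptgds was alone past 1. Of 9 with a value, 8 were at a mean level of at least 5, 1 stood higher by 1 and none lower, and their median was −0.28. Hpgds, the hematopoietic synthase of prostaglandin D2, stood at −0.14 ± 0.57 with a level of 4.88 after light damage and 4.40 in the control, both under 5. The median of its probe set differences and the difference of these median levels have opposite signs, so no direction is read for Hpgds. The same conflict of signs holds for Ptger3, Ptger4, Ptgis and, below, Abcc4, and no direction is read for them either. Some genes of the other lists show it too, and counts above or below 0 use the probe set differences throughout. Prostacyclin synthase (Ptgis) stood at −0.04 ± 0.60, thromboxane synthase (Tbxas1) at −0.32 ± 0.65, and Prxl2b and Cbr1, which take part in making prostaglandin F, at −0.25 ± 0.40 and −0.42 ± 0.24. Cbr1 had 4 of 4 probe sets below 0.

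None of 5 genes of prostaglandin breakdown and transport differed by 1 or more. Hpgd, which starts the inactivation of prostaglandins, stood at −0.18 ± 0.50, with none of 8 probe sets above 0. The reductases that act after it differed in sign, Ptgr1 at 0.42 ± 0.86 (9 of 11 probe sets above 0) and Ptgr2 at −0.58 ± 0.52 (1 of 11 above 0). The uptake carrier Slco2a1 stood at −0.08 ± 1.05 and the export pump Abcc4 at 0.22 ± 1.16.

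**Figure D5:**
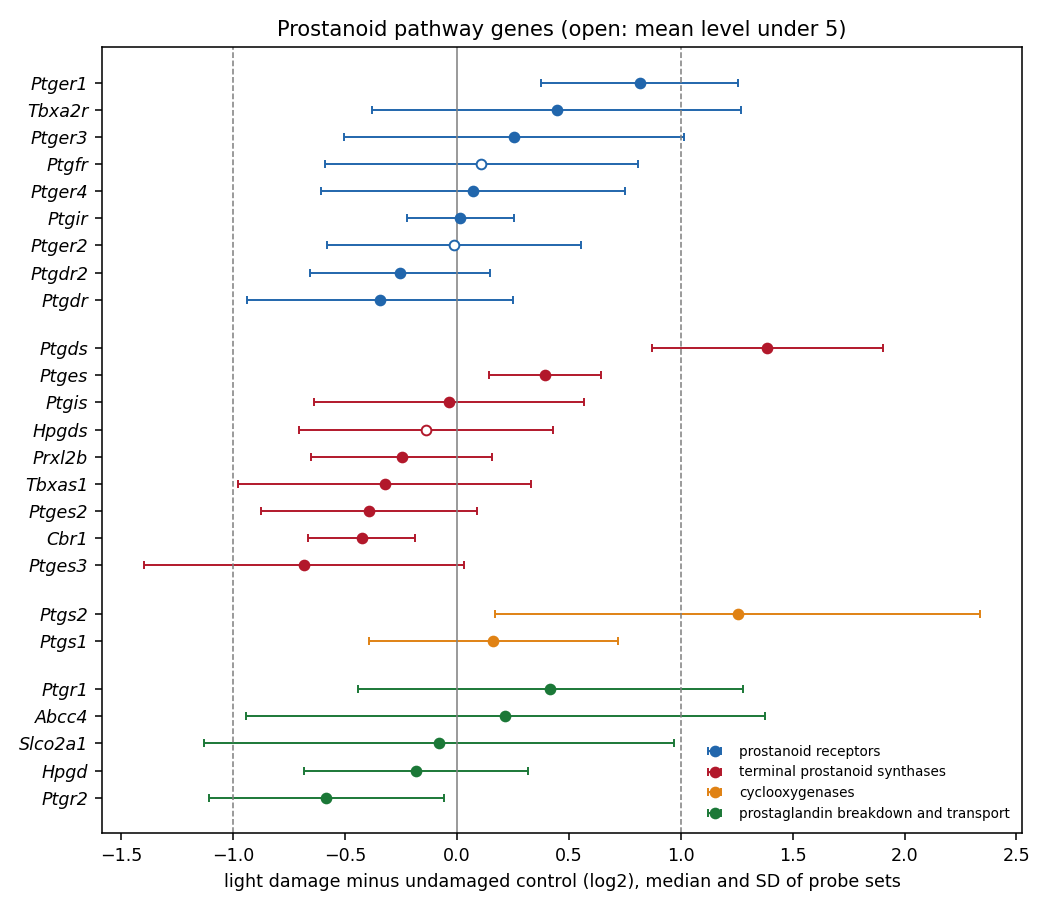
Difference (light damage minus undamaged control, log2, horizontal axis) of prostanoid receptors, terminal synthases, cyclooxygenases and genes of breakdown and transport, as the median and SD over probe sets, with dashed lines at 1 and −1. Open symbols have a mean level under 5, and only Ptgds and Ptgs2 lie past a dashed line.

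Genes of other cells in a sorted fraction were read beside these differences, since several of the pathway's genes are known from microglia or vessels. In bulk RNA, fewer cells of a type and less RNA per cell cannot be told apart. Endothelial and pericyte markers were above 0 in 11 of 11, against 47% of all genes tested, with a median of 0.45. The log2 of their summed levels was 13.05 after light damage and 12.63 in the control. Kdr and Flt1, the brightest of this list, stood at 0.26 ± 0.56 and 0.57 ± 0.53. Their levels were 12.25 and 11.05 after light damage, and 11.93 and 10.56 in the control. Pecam1 and Cdh5 read 5.92 and 5.58 after light damage, and 5.61 and 5.63 in the control. Cdh5 was counted above 0 by its probe set differences (0.31 ± 0.86), against its median levels, so no direction is read for it. The sum thus rests mostly on Kdr and Flt1 and was not read as an amount of vessel cells. In this list 1 gene stood past 1, the pericyte gene Rgs5, at 1.13 ± 0.70 with 7 of 8 probe sets above 0. Microglia and macrophage markers were above 0 in 9 of 15 and below 0 in 6, with a median of 0.03 at a mean level of at least 5. Their summed levels were 10.05 after light damage and 9.97 in the control. The largest differences above 0 were those of Cd68 at 1.45 ± 1.02, C1qb at 0.48 ± 0.25 and Ptprc at 0.42 ± 1.37. The lowest were those of Ctss at −0.79 ± 0.48, Cx3cr1 at −0.39 ± 0.26 and Tmem119 at −0.34 ± 0.39. Pigment epithelium markers (6 of 10 above 0, median 0.08, summed levels 9.39 after light damage and 9.29 in the control) and oligodendrocyte markers (4 of 5, median 0.29, 8.42 after light damage and 8.37 in the control) lay within 1 throughout. Of 4 astrocyte markers, 2 were above 0 (median 0.11, summed levels 8.86 after light damage and 8.24 in the control), among them Gfap at 3.05 ± 1.08. The 2 below 0 were Pdgfra at −0.01 ± 1.14 and S100b at −0.24 ± 0.15. The paper reports GFAP protein raised in Müller glia themselves after light damage, so Gfap is not specific to astrocytes here. Müller glia markers, with Glul at −0.34 ± 1.06 and Clu at 0.56 ± 1.25, had 8 of 18 above 0 (median −0.11, summed levels 15.75 after light damage and 15.72 in the control). Of these 18, 1 stood past 1, Crym, at 1.15 ± 0.30 with 9 of 9 probe sets above 0. Rod markers had 0 of 11 above 0 (median −0.93, summed levels 14.91 after light damage and 15.59 in the control). Of these 11, 5 stood lower by 1 or more, against 3.47% of all genes tested. The brightest rod markers, Gnat1, Pde6g, Sag and Pde6b, stood at −0.29 ± 0.21, −0.09 ± 0.27, −0.03 ± 0.79 and −1.33 ± 0.47. Pde6g and Sag had higher median levels after light damage, so no direction is read for them. Levels on this platform have no true zero, so none of these markers can be called absent, and the part of such cells in the differences of Ptgds and Ptgs2 was not tested.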

How the data were processed

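RNA of sorted Müller glia was hybridised to 1 Mouse Gene 1.0 ST array per condition (10 light damaged and 12 undamaged retinas). The authors normalized the arrays with Affymetrix Power Tools and used the TM4 Multi-Experiment Viewer. No source read here gives versions, background correction or summary method. What was deposited are log2 levels per probe set. Of 241576 probe sets, the platform annotation gave 1 gene for 212138 (87.8%), and older symbols were updated to RefSeq symbols (GRCm38.p6) by synonym. Coordinates of probe sets were not used, and those of genes (RefSeq) served only for promoter windows and for neighbouring genes.

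For each gene, light damage minus undamaged control was taken per probe set and the median used, counted at 1 or more among genes with a mean level (of both arrays) of 5 or more. Summed levels were taken over linear values. No test was possible with 1 array per condition, and the number of arrays limits the precision. Differences at low levels are less certain. The 5th to 95th percentile of all probe sets ran from −2.25 to 1.95 at a median level of 3.93. It ran from −1.29 to 1.09 at 9.92. The part of background in any difference was not tested. The 8 genes, the lists and the motifs were chosen with earlier results of these data known. All 8 genes and all genes of the lists of receptors, synthases, cyclooxygenases, and breakdown and transport were named. Of the lists of phospholipases, lipoxygenases and Hsp90 partners those past 1 were named, or else the gene with the largest difference. Of marker lists up to 4 of highest level were named, here Glul, Clu, Kdr, Flt1, Gnat1, Pde6g, Sag and Pde6b. Gfap, Pdgfra, S100b, Cd68, C1qb, Ptprc, Ctss, Cx3cr1, Tmem119, Rgs5, Pecam1, Cdh5, Crym and Pdc were named after their values were seen. Alternatives were other scalings, offsets, summaries, minimum levels and thresholds. Steps were tested on simulated data. Python 3.11.15, numpy 2.4.6, pandas 2.3.3, statsmodels 0.14.6 and matplotlib 3.10.9 were used.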

Additional observations from a re-analysis of the deposited data

How the results depend on the processing

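Of 73 differences of single genes under alternatives, 70 moved by less than the SD over probe sets. That SD is wide where probe sets disagree, so Ptgs2 at 0.64 with the offset of 32 counted among the 70. The 3 exceptions were Ptgds with the offset of 32 (0.82) and in its brightest probe set (0.59), and Ptgs2 in its brightest probe set, where the sign turned (−0.10). Medians near 0 changed sign within their SD, as Ptger4 did with the mean of probe sets (−0.04) and Pla2g4a in its brightest probe set (0.19). The 2 genes higher by 1 became 0 with the offset of 32, 0 with the brightest probe set of each gene, 1 at a minimum level of 7 (Ptgds) and 0 at a threshold of 2, while at a threshold of 0.5 there was 1 lower gene (Ptges3). Quantile normalization, median centring, the loess trend and the mean of probe sets left the count at 2. Among all genes, the higher and lower counts were 157 and 311 with the offset, 1107 and 1342 with the brightest probe set, 27 and 9 at a threshold of 2, and 1813 and 2836 at a threshold of 0.5. They were 194 and 450 at a minimum level of 7, and 272 and 549 with a level of at least 5 on both arrays. Of the probe sets of the 8 genes, 4 stood higher and 1 lower at a threshold of 2, and 4 stood lower by 1 with the offset. That the offset lowers a difference follows from its construction, and the cause of the disagreement between probe sets was not tested. Added after seeing the data was Ptges3 from the probe sets numbered beside chromosome 10 genes alone (−0.45). Also added was a level of at least 5 on both arrays, which left 1 gene higher (Ptgds). Low levels limit what can be read from Ptger4, Hpgds and the dim probe sets of Ptgs2. No paired analysis was possible because each condition had 1 array.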

Other observations

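Of 48 further eicosanoid genes with a value, 42 were at a mean level of at least 5, and among these 41 lay within 1, none stood higher by 1 and 1 stood lower (2.38% past 1, against 5.22% of all genes tested). That gene was Pla2g7, which encodes the platelet-activating factor acetylhydrolase, a secreted enzyme that breaks down an inflammatory phospholipid. It stood at −1.14 ± 1.02 over 14 probe sets, 13 of them below 0, with levels of 9.03 after light damage and 10.51 in the control. The 22 phospholipases and other enzymes that free or handle arachidonic acid, Pla2g4a among them, had 11 genes above 0 and 11 below and a median of 0.02 at a mean level of at least 5. Of 9 lipoxygenases and leukotriene enzymes none differed by 1 or more, their median was −0.12, and Alox5ap, the activating protein of 5-lipoxygenase, had the largest difference (−0.75 ± 1.18, 3 of 7 probe sets above 0).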
